A study of Bos taurus with 179 samples.

Results

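The genes described here encode cleavage and polyadenylation factors, the proteins that cut a nascent transcript at its 3′ end and prepare it for its poly(A) tail. They were chosen by symbol: CPSF or CSTF followed by a digit, and CLP1, kept where the study listed the symbol with a gene identifier among genes it counted as expressed in every size group. The copy of that list read here was shortened and held 1997 such pairs. Of the 21218 gene identifiers counted, 8 met the rule: CPSF1 (ENSBTAG00000008355), CPSF2 (ENSBTAG00000010227), CPSF3 (ENSBTAG00000019735), CPSF4 (ENSBTAG00000002090), CPSF6 (ENSBTAG00000007323), CSTF1 (ENSBTAG00000006639), CSTF2 (ENSBTAG00000003547) and CSTF3 (ENSBTAG00000008617). CLP1 and other factors of the same machinery were not analysed here. CPSF1 stood on 2 lines of the count table, which held 8702 and 6893 counts and were summed.

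Single growing oocytes of Bos taurus were taken from abattoir ovaries by slicing the cortex, and the largest by aspirating surface follicles. They were freed of surrounding cells by pipetting and measured under a microscope. The medium for slicing and washing contained cilostamide and heparin, among other additives. No treatments were compared and no genetic change was applied, and neither the animals nor their ages are named. Polyadenylated mRNA of each oocyte was captured with oligo-dT, amplified and sequenced in 2 library replicates, of which replicate 1 had reads of 150 bp and replicate 2 reads of 75 bp. The labels sort 179 oocytes into 8 size groups, and the 165 that passed the quality control of the study were used: 21 oocytes <60 μm in diameter, 25 of 60–69 μm, 23 of 70–79 μm, 24 of 80–89 μm, 21 of 90–99 μm, 18 of 100–109 μm, 19 of 110–119 μm and 14 oocytes >120 μm. Different oocytes made up the replicates, 97 in replicate 1 and 68 in replicate 2.

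As background, the cleavage and polyadenylation specificity factor (CPSF) binds the AAUAAA signal and cuts the transcript downstream of it. The cleavage stimulation factor (CSTF) binds a GU-rich element further downstream, and cleavage factor I, to which CPSF6 belongs, binds UGUA elements upstream and takes part in the choice between poly(A) sites. In oocytes CPSF subunits also act in the cytoplasm, where with CPEB proteins they lengthen the tails of stored mRNAs. Transcription is active while the oocyte grows and ceases near full size, so transcripts made during growth serve later stages.

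The oocytes held between 277126 and 8038061 counts each, with a median of 1763520. Counts were summed over the oocytes of each size group and library replicate, which gave 16 sums of between 4467434 and 46545515 counts. Levels are given as CPM, counts per 1000000 counts of a library scaled by TMM, a measure of a transcript's share of the captured mRNA and not of its amount in an oocyte. Capture by oligo-dT needs a poly(A) tail, so levels of mRNAs with short tails may be understated. In the sum of 100–109 μm oocytes of replicate 1, a single oocyte supplied 52.9% of the counts, and in that of oocytes <60 μm of replicate 1 only 3 oocytes were present. A single oocyte supplied 46.6% of the latter, 33.1% of the sum of oocytes >120 μm in replicate 1 and 37.5% of that in replicate 2. Oocyte markers were high in every sum: BMP15, BTG4, BCAR4 and CPEB1 together reached 5064 to 9712 CPM, without TMM scaling. The 3 granulosa cell markers available (AMHR2, CYP11A1, FSHR) summed to at most 3.68 CPM, the 8 of stroma and vessels to between 5.87 and 27.8 CPM, and CD14 with CD68 to at most 1.36 CPM. In the sums of 100–109 μm oocytes AMHR2 and CYP11A1 were at 0. FSHR was highest there, and the 3.68 CPM was its level in the 100–109 μm sum of replicate 2.

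All 8 genes passed the filter on low counts, and since the rule took only genes listed as expressed in every size group, their presence at each size was fixed by the choice and is no result. Over the 165 oocytes they were supported by between 7425 counts (CPSF4) and 60514 counts (CSTF3). The trend with diameter was the slope of log2 expression per 10 μm, fitted by the quasi-likelihood test of edgeR over the 16 sums with the replicate as a block and adjusted by Benjamini-Hochberg over 14087 genes. In this test CPSF4 was upregulated with diameter and CPSF6 was downregulated, whereas CPSF1, CPSF2, CPSF3, CSTF1, CSTF2 and CSTF3 did not pass. Of all genes tested 33% passed, 14.8% rising and 18.1% falling, so 2 of 8 factors was close to the general share. The median slope of the 8 factors was 0.0016, beside −0.02 over all genes, and 4 slopes were positive and 4 negative.

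**Figure D1:**
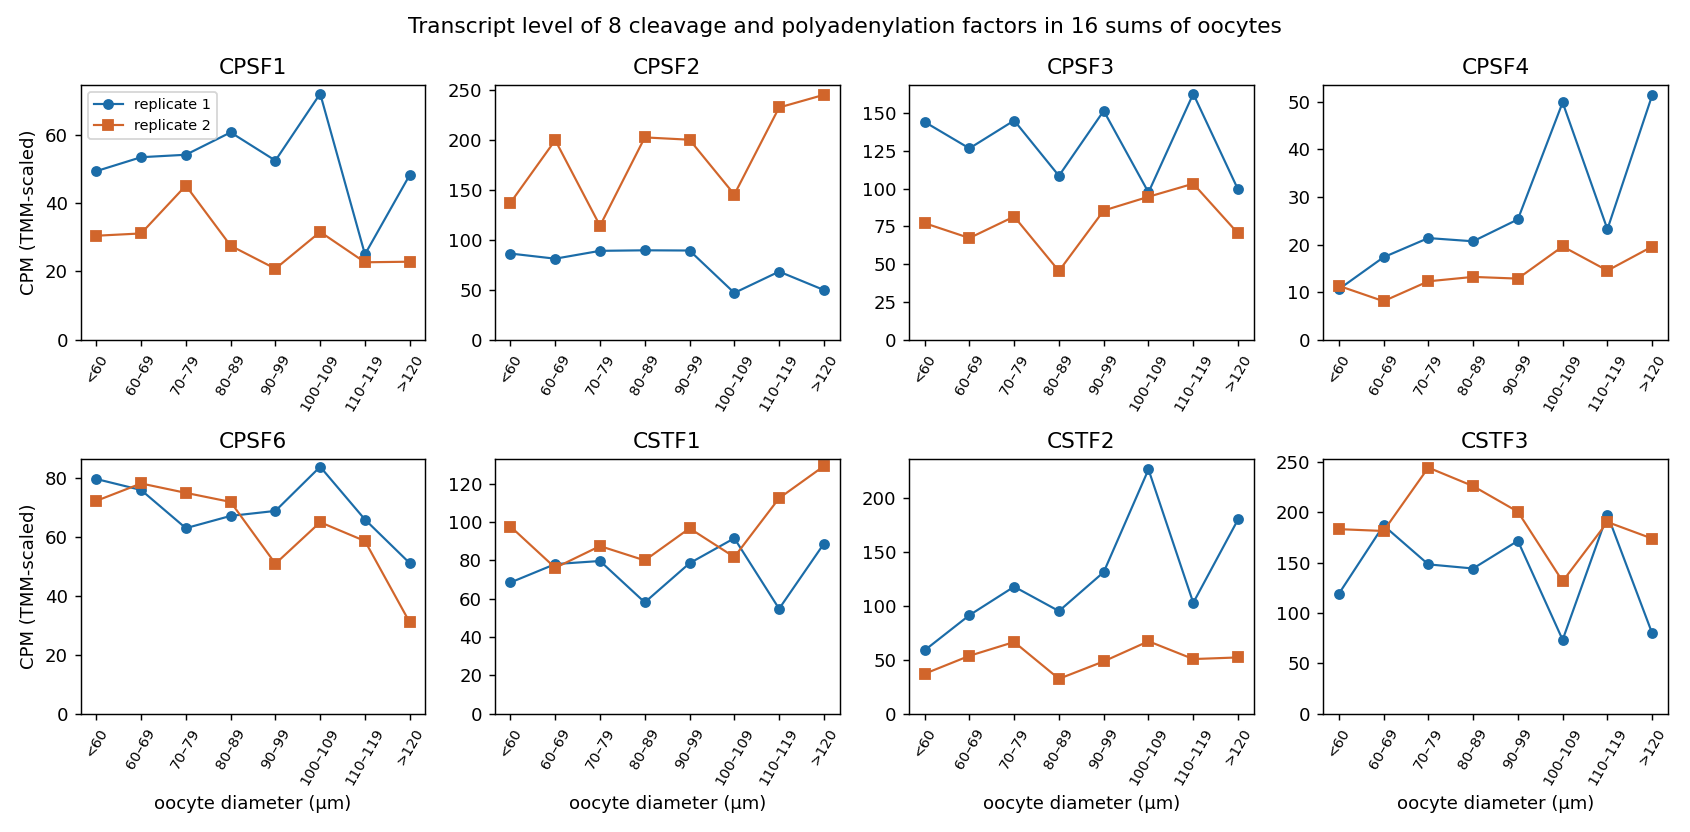
CPM of the 8 factors (vertical axes, each starting at 0) in the sums of each size group (horizontal axes, μm) in replicate 1 (circles) and replicate 2 (squares). CPSF4 runs from 10.6 to 51.4 CPM in replicate 1 and from 11.3 to 19.6 CPM in replicate 2 between the smallest and the largest oocytes, while the lines of CPSF2 stay apart at every size.

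CPSF4, the zinc finger subunit that contacts the AAUAAA signal, showed the largest slope of the 8 factors. In replicate 1 its level was 10.6 CPM in oocytes <60 μm, 17.3 at 60–69 μm, 21.4 at 70–79 μm, 20.7 at 80–89 μm, 25.3 at 90–99 μm, 49.9 at 100–109 μm, 23.2 at 110–119 μm and 51.4 CPM in oocytes >120 μm. In replicate 2 the corresponding levels were 11.3, 8.08, 12.3, 13.2, 12.8, 19.6, 14.5 and 19.6 CPM. Both replicates were therefore lowest below 70 μm and high at 100–109 μm and >120 μm, with a lower value between these. The slope was 0.20 log2 per 10 μm (SE 0.04, adjusted p = 0.000862 by edgeR), and it passed the threshold with each of the 16 sums left out. Within the replicates the slope was 0.29 (SE 0.06, adjusted p = 0.00859) in replicate 1 and 0.13 (SE 0.05, adjusted p = 0.0794) in replicate 2, each fitted by edgeR over 8 sums. The difference between these slopes did not pass the test of the interaction (−0.14, SE 0.08, adjusted p = 0.528 by edgeR).

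CPSF6, the subunit of cleavage factor I, moved the other way. Its sums in replicate 1 held 79.7, 75.9, 63.0, 67.1, 68.8, 83.8, 65.9 and 51.1 CPM from the smallest to the largest group. In replicate 2 they held 72.3, 78.2, 75.0, 71.9, 50.9, 65.0, 58.6 and 30.99 CPM. Oocytes >120 μm were the lowest group in each replicate, and replicate 2 was above replicate 1 in 3 of 8 groups. The slope was −0.09 log2 per 10 μm (SE 0.03, adjusted p = 0.0356 by edgeR). The call lay close to the threshold: it was lost with 14 of the 16 sums left out in turn (adjusted p between 0.0374 and 0.324 over all 16), with RLE scaling (slope −0.08, adjusted p = 0.0673), with thinning to 250000 counts (adjusted p = 0.204), with no filter on low counts (0.0955), with all 179 oocytes (0.0600) and without the replicate block (0.123). In replicate 1 alone the slope was −0.02 (adjusted p = 0.771) and in replicate 2 alone −0.12 (adjusted p = 0.0510), both by edgeR.

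CSTF2, the CSTF subunit that touches the RNA, lay just outside the threshold for the trend. In replicate 1 it was measured at 58.8, 91.4, 118, 95.3, 131.4, 226.8, 103 and 180 CPM from the smallest to the largest oocytes. Replicate 2 gave 37.0, 53.7, 66.5, 32.3, 48.5, 67.2, 50.7 and 52.2 CPM, below replicate 1 in all 8 groups. Within replicate 1 every larger group was above the smallest, and in replicate 2 only the 80–89 μm group was below it. The slope was 0.11 log2 per 10 μm (SE 0.04, adjusted p = 0.0533 by edgeR), and it passed with 10 of 16 sums left out (adjusted p between 0.0233 and 0.151) and with RLE scaling (adjusted p = 0.0350) or by DESeq2 (adjusted p = 0.0198, beside 36.4% of all genes). It did not pass with all 179 oocytes (adjusted p = 0.0603 by edgeR) or without the replicate block (adjusted p = 0.263). The slope was 0.21 (adjusted p = 0.0325) in replicate 1 alone and 0.04 (adjusted p = 0.650) in replicate 2 alone, and the difference did not pass the interaction test (−0.16, SE 0.08, adjusted p = 0.481 by edgeR). The RefSeq gene table also lists CSTF2T, a copy of CSTF2 without introns, and CPSF4L, a relative of CPSF4. How reads that fit more than a single gene were counted is not given in the sources used here, so some of the CSTF2 and CPSF4 counts may belong to these copies.

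**Figure D2:**
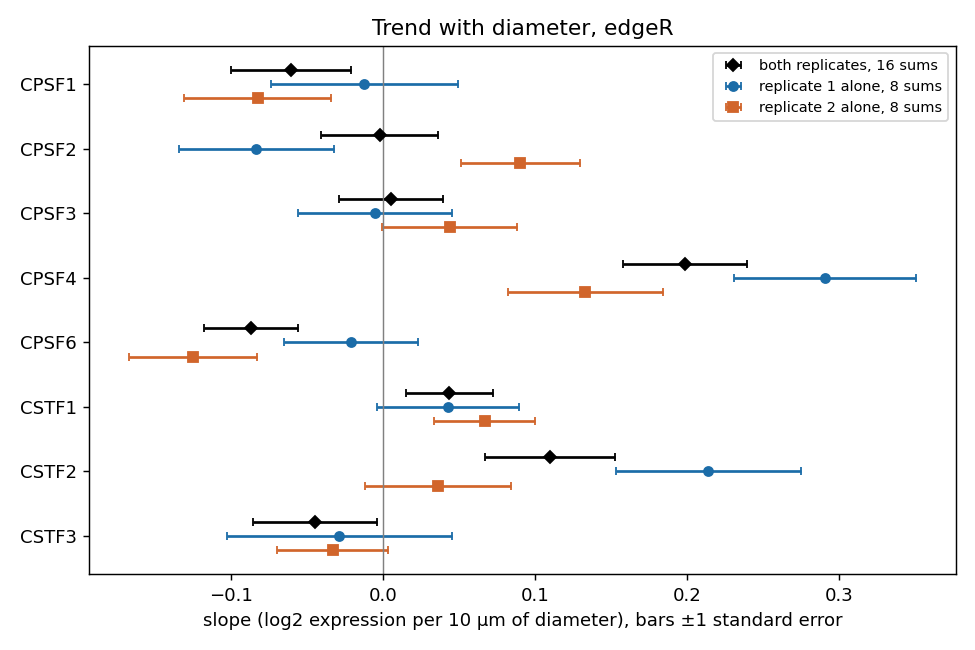
Slope of each factor with diameter (horizontal axis, log2 per 10 μm, bars ±1 SE) over all 16 sums (diamonds) and over the 8 sums of replicate 1 (circles) or replicate 2 (squares). CPSF4 lies above 0 in all 3 fits (0.20, 0.29 and 0.13), and CPSF2 lies on opposite sides of 0 in the replicates.

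The remaining slopes did not pass. CPSF1, the large scaffold subunit of the signal-binding module, had a slope of −0.06 (SE 0.04, adjusted p = 0.255 by edgeR). CPSF3, the endonuclease that makes the cut, was at 0.01 (SE 0.03, adjusted p = 0.921), and CPSF2, its catalytically inactive partner, at −0.0022 (SE 0.04, adjusted p = 0.972). The CSTF scaffold CSTF3 had a slope of −0.04 (SE 0.04, adjusted p = 0.426), and CSTF1, the WD-repeat subunit, had 0.04 (SE 0.03, adjusted p = 0.250). CSTF1 passed with 1 of the 16 sums left out, that of 110–119 μm oocytes of replicate 1 (slope 0.07, adjusted p = 0.0442 by edgeR). The slope of CPSF2 was −0.08 in replicate 1 (adjusted p = 0.280) and 0.09 in replicate 2 (adjusted p = 0.120). This was the widest gap between replicates among the factors (0.20, SE 0.07), and with an unadjusted p of 0.00666 and an adjusted p of 0.301 by edgeR it did not pass. For the interaction edgeR called 0% of all genes and none of the 8 factors. At an unadjusted p below 0.05 the count was 1 factor, beside 10.8% of all genes, and DESeq2 called 0 factors, beside 0.866% of all genes.

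Compared as 2 endpoints, oocytes >120 μm differed from oocytes <60 μm in 3 of the 8 factors. CPSF4 was upregulated by 1.49 log2 (SE 0.37, adjusted p = 0.00901 by edgeR) and CSTF2 by 1.06 log2 (SE 0.32, adjusted p = 0.0241), whereas CPSF6 fell by 0.89 log2 (SE 0.28, adjusted p = 0.0340). Among all genes 19.2% passed, 9.36% higher and 9.8% lower in the larger oocytes, and the median change over all genes was −0.12 log2. CPSF4 was 2.28 log2 higher in replicate 1 and 0.79 in replicate 2, CSTF2 was 1.62 and 0.50 log2 higher, and CPSF6 was lower by −0.64 and −1.22 log2, as plain differences of log2 CPM. No factor passed without the sum of 3 oocytes <60 μm in replicate 1 or without that of 10 oocytes >120 μm in replicate 1, while CPSF4 and CSTF2 passed with each of the other 14 sums left out, that of 4 oocytes >120 μm in replicate 2 included. CPSF6 passed with only 2 of the 16 sums left out (adjusted p between 0.0418 and 0.401), and its call was also lost with thinning to 250000 counts, with all 179 oocytes, with no filter on low counts and in a fit of only these groups. In that last fit CSTF2 did not pass either (adjusted p = 0.0712 by edgeR). Without the replicate block no factor passed, beside 0.575% of all genes. CPSF1 (−0.21), CPSF2 (0.07), CPSF3 (−0.34), CSTF1 (0.39) and CSTF3 (−0.30) had adjusted p-values between 0.375 and 0.911 by edgeR.

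A test of any difference among the 8 size groups allows for changes that are not straight lines. CPSF4 (adjusted p = 0.0241 by edgeR) and CSTF2 (adjusted p = 0.0452) passed it, as did 14.9% of all genes. The largest and smallest fitted group levels were 1.49 log2 apart for CPSF4 and 1.40 log2 apart for CSTF2. CSTF3 had an adjusted p of 0.133 by edgeR, and for CPSF6, called in the trend, it was 0.242. DESeq2 called CPSF4, CSTF2 and CSTF3 (adjusted p = 0.0480 for CSTF3), beside 29.1% of all genes. With a sum left out CPSF4 passed in 13 of 16 cases (adjusted p between 0.00302 and 0.0730) and CSTF2 in 8 of 16 (0.0197 to 0.133). Both failed without the replicate 1 sum of 60–69 μm, of 100–109 μm or of >120 μm, and CSTF2 also without that of <60 μm, 90–99 μm or 110–119 μm in replicate 1 or of 80–89 μm in either replicate. Neither passed with all 179 oocytes (adjusted p = 0.0753 and 0.0989 by edgeR) or without the replicate block, and CSTF2 did not pass without the deepest 100–109 μm oocyte (adjusted p = 0.0632).

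Between successive sizes the study combined groups into 5 steps, and no factor passed in any of them by edgeR over the 16 sums with the filter on low counts. The share of all genes called was 0.135% from <70 to 70–79 μm, 0% from 70–79 to 80–99 μm, 0.497% from 80–99 to 100–109 μm, 3.88% from 100–109 to 110–119 μm and 0.0071% from 110–119 to >120 μm. At an unadjusted p below 0.05 the factors numbered 1, 0, 4, 4 and 4 in these steps, beside 7.55%, 5.54%, 16.1%, 26% and 11.1% of all genes. Single libraries moved these counts: without the deepest 100–109 μm oocyte those of the steps to and from 100–109 μm became 2 and 2, and without the whole 100–109 μm sum of replicate 1 they became 0 and 1. The count from 100–109 to 110–119 μm was also 1 without 110–119 μm oocytes of replicate 1, and that of the last step was 0 without these, 1 without oocytes >120 μm of replicate 1, and 2 without 60–69 μm, 110–119 μm or >120 μm oocytes of replicate 2. DESeq2 called CSTF2 and CSTF3 from 80–99 to 100–109 μm, where it called 3.59% of all genes, and CPSF1 and CSTF3 from 100–109 to 110–119 μm, where it called 14%. At the first of these steps edgeR called CPSF4 (adjusted p = 0.0474), CSTF2 (0.0140) and CSTF3 (0.0218) in a fit of only the groups compared, beside 7.53% of all genes, and CSTF2 with no filter on low counts. At the second it called CSTF3 with no filter and with any of 4 sums left out, and CPSF1 in 1 of those 4, without 110–119 μm oocytes of replicate 2 (adjusted p = 0.0433).

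**Figure D3:**
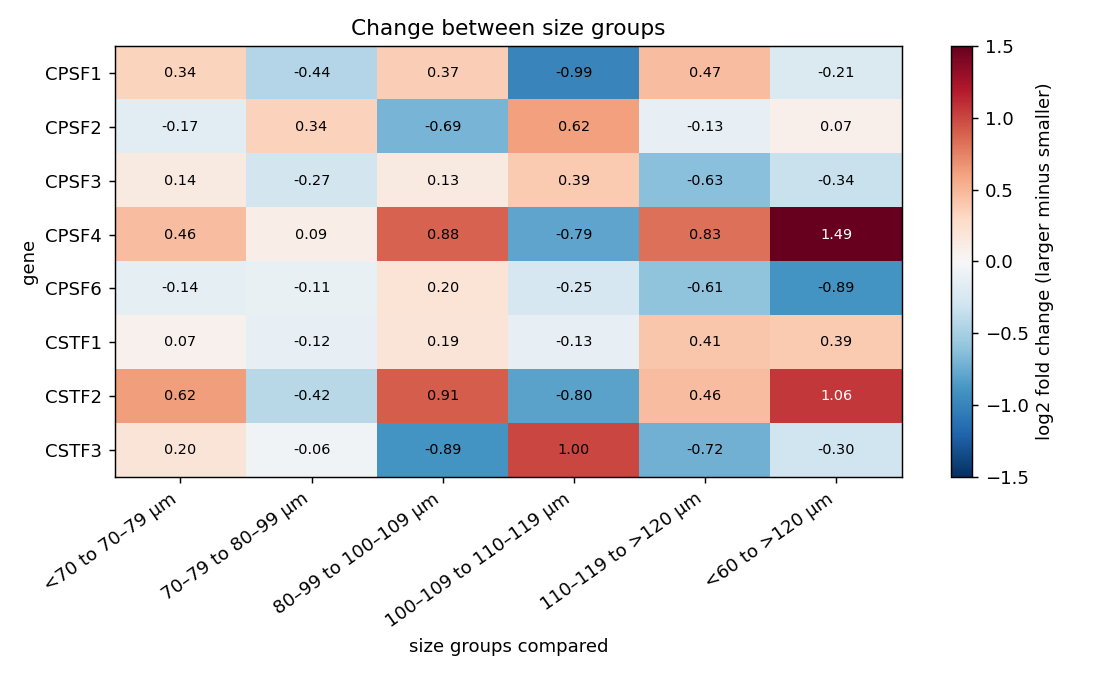
Log2 fold change of each factor (rows) in the 5 steps between successive sizes and between the endpoints (columns), larger minus smaller oocytes, from red (higher) to blue (lower). CPSF4 and CSTF2 read 0.88 and 0.91 at the step to 100–109 μm and −0.79 and −0.80 at the next, where CSTF3 reads −0.89 and then 1.00.

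The values with the smallest p lay around the 100–109 μm group, where factors of the same complex had opposite signs. CSTF2 had a log2 change of 0.91 (SE 0.26, adjusted p = 0.107 by edgeR) on reaching 100–109 μm, −0.80 (SE 0.31, adjusted p = 0.120) at 110–119 μm and 0.46 (SE 0.31, adjusted p = 0.568) above 120 μm. For CSTF3 the same steps read −0.89 (SE 0.27, adjusted p = 0.129), 1.00 (SE 0.30, adjusted p = 0.0617) and −0.72 (SE 0.30, adjusted p = 0.434). Its sums in replicate 1 held 119, 187, 148.2, 144.1, 172, 73.3, 197.6 and 79.7 CPM from the smallest to the largest group, and in replicate 2 they held 183, 181, 244.3, 226, 200.5, 131.4, 190.2 and 174 CPM. The 100–109 μm group was the lowest of all in each replicate, and the swing was wider in replicate 1. That rank did not hold for the median over oocytes in either replicate. In replicate 1 the median was 109.1 CPM at 100–109 μm and 93.2 CPM above 120 μm. In replicate 2 the median was 150.962 CPM at 100–109 μm and 145.186 CPM at 60–69 μm. The ratio of CSTF2 to CSTF3 counts was between 0.489 and 0.796 in the 6 other sums of replicate 1, against 3.10 at 100–109 μm and 2.26 above 120 μm. The oocyte that supplied most counts of the 100–109 μm sum had a ratio of 7.66, and without it the ratio of the sum was 1.45, with the other 10 oocytes between 0.975 and 3.02. Above 120 μm in replicate 1 a single oocyte supplied 33.1% of the counts, and the ratio without it was not computed. In replicate 2 the ratio was 0.512 at 100–109 μm and 0.3003 above 120 μm, with the others between 0.143 and 0.296. Only changes of this ratio can be read, since transcript lengths were not used.

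In the fit over all 16 sums the CPSF subunits did not pass at these steps. CPSF4 had log2 differences of 0.88 (SE 0.30, adjusted p = 0.174 by edgeR), then −0.79 (SE 0.36, adjusted p = 0.173), then 0.83 (SE 0.36, adjusted p = 0.439). CPSF1 was measured at 72.1 CPM in replicate 1 and 31.6 CPM in replicate 2 at 100–109 μm, and at 25.0 and 22.7 CPM at 110–119 μm, a log2 difference of −0.99 (SE 0.33, adjusted p = 0.0780 by edgeR). CPSF2 read −0.69 log2 (SE 0.32, adjusted p = 0.293) on reaching 100–109 μm. At the last step CPSF3 (−0.63) and CPSF6 (−0.61) had adjusted p-values of 0.439 and 0.445. For CPSF4 and CSTF2 the 5 steps had the same sign in both replicates, and for CSTF3 this held for 3 of the 5, those from 80–99 μm on. It held for 4 of 5 in CPSF1, CPSF3 and CPSF6, for 3 in CPSF2 and for 2 in CSTF1. When the oocyte that supplied most counts of the 100–109 μm sum was left out, the step to 100–109 μm became 0.64 log2 for CSTF2, 0.59 for CPSF4 and −0.59 for CSTF3 (adjusted p = 0.531, 0.586 and 0.550 by edgeR).

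Levels differed between the library replicates at the same size. CPSF2 was higher in replicate 2 in all 8 groups, by a median of 2.36 times (range 1.28 to 4.94). CSTF2, CPSF1 and CPSF3 were lower in replicate 2 in all 8 groups, with median ratios of 0.431, 0.528 and 0.563, and CPSF4 was lower in 7 of 8 (0.541). CPSF6 had a median ratio of 0.898, CSTF1 of 1.30 and CSTF3 of 1.55. Read length, library batch and the oocytes themselves changed together between the replicates and cannot be told apart.

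In single oocytes the factors spread widely within each size group. Of the 21 oocytes <60 μm 18 were of replicate 2, against 4 of the 14 oocytes >120 μm, so medians over both replicates mix size with replicate. CPSF4 had a median of 8.53 CPM (lowest 0, highest 37.8) in the 21 oocytes <60 μm, 15.3 CPM (0 to 32.6) at 60–69 μm and 17.1 CPM (4.31 to 53.7) at 70–79 μm. The medians were 18.2 CPM (2.08 to 49.0) at 80–89 μm, 20.1 CPM (0 to 43.7) at 90–99 μm, 29.6 CPM (4.80 to 75.5) at 100–109 μm, 17.0 CPM (7.13 to 48.3) at 110–119 μm and 30.4 CPM (12.1 to 93.7) in the 14 oocytes >120 μm. Within replicate 1 the medians of the smallest and largest group were 8.53 and 33.6 CPM, and within replicate 2 they were 8.61 and 20.6 CPM. No oocyte >120 μm was below 12.1 CPM, and the ranges of all groups overlapped. Behind these values stood a median of 28 CPSF4 counts per oocyte, so counting error alone is large for this gene.

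**Figure D4:**
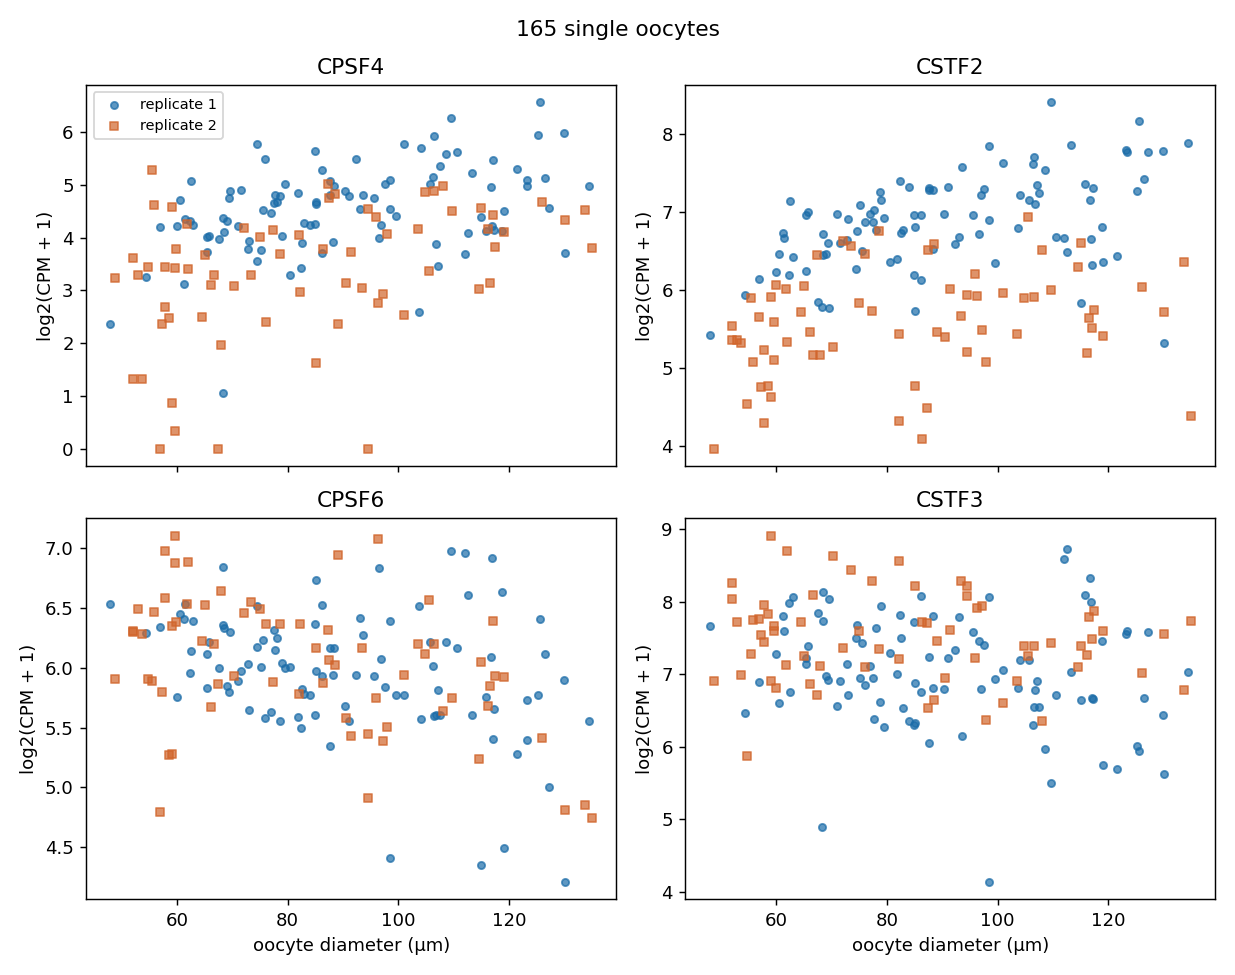
Log2(CPM + 1) of CPSF4, CSTF2, CPSF6 and CSTF3 (vertical axes) against the diameter of each of the 165 oocytes (horizontal axes, μm) in replicate 1 (circles) and replicate 2 (squares). With replicate means removed r is 0.390 for CPSF4, 0.380 for CSTF2 and −0.374 for CPSF6, and at every size points of one group cover a wide range.

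CSTF2 had a median of 40.1 CPM (14.7 to 69.4) in oocytes <60 μm, 139 CPM (42.3 to 339) at 100–109 μm, 89.2 CPM (35.7 to 231) at 110–119 μm and 162 CPM (20.0 to 285.8) above 120 μm. Within replicate 2 its medians in the smallest and largest oocytes were closer, at 37.9 and 58.3 CPM, against 60.2 and 217.3 CPM within replicate 1. CPSF6 had a median of 78.0 CPM (26.7 to 137) in the smallest oocytes and 41.3 CPM (17.5 to 83.6) in the largest, with 77.9 and 27.5 CPM in replicate 2 and 80.0 and 49.0 CPM in replicate 1. CSTF3 had a median of 192 CPM (57.4 to 480.8) in the smallest oocytes, 115 CPM (44.2 to 172) at 100–109 μm, 175 CPM (52.9 to 422) at 110–119 μm and 119 CPM (48.5 to 212) above 120 μm. Its highest oocyte at 100–109 μm lay below the highest oocyte of every other size. For CSTF2 the sums were higher at 100–109 μm than above 120 μm in both replicates, whereas the oocyte medians were 162 and 217.3 CPM in replicate 1 and 61.5 and 58.3 CPM in replicate 2.

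With the mean of each replicate removed, diameter correlated with CPSF4 (Pearson's r = 0.390, Spearman's rho = 0.395), CSTF2 (0.380 and 0.410) and CPSF6 (−0.374 and −0.353) over the 165 oocytes. For these 3 factors r had the same sign in replicate 1 (0.405, 0.476 and −0.319) and replicate 2 (0.384, 0.271 and −0.438), and it was 0.390, 0.407 and −0.347 after the 2 most extreme diameters were dropped. The other 5 factors had r between −0.156 (CSTF3) and 0.110 (CPSF3). CPSF2 was split, at −0.315 in replicate 1 and 0.246 in replicate 2. Diameter itself correlated with the total count of an oocyte at r = −0.217, CSTF2 with that total at −0.255, CPSF4 at −0.143 and CPSF6 at 0.215, and the part of depth in these values was not tested beyond thinning. In oocytes thinned to 250000 counts r was 0.406 for CPSF4, 0.317 for CSTF2 and −0.252 for CPSF6. With all 179 oocytes it was 0.409, 0.324 and −0.022, with Spearman's rho at 0.404, 0.422 and −0.257. These correlations share libraries and depth and are descriptions.

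Wide detection follows from the rule, so only its exceptions are of note. CPSF2, CPSF3, CPSF6, CSTF1, CSTF2 and CSTF3 had counts in each of the 165 oocytes. CPSF4 had 0 counts in 3 oocytes, 1 each at <60 μm, 60–69 μm and 90–99 μm, all of replicate 2, where 3 counts would have been 0.751 to 1.92 CPM. CPSF1 had 0 counts in 1 oocyte of 90–99 μm, where 3 counts would have been 0.778 CPM. With every oocyte thinned to 250000 counts, CPSF4 was at 0 in 7 of 21 oocytes <60 μm, 3 of 25 at 60–69 μm and 2 of 21 at 90–99 μm, and in none of the others. Of these 12 oocytes 11 were of replicate 2, to which 18 of the 21 smallest belonged, so size and replicate are mixed in this pattern. CPSF1 was then at 0 in 5 of 165 oocytes, in 5 different size groups, and the other 6 factors in none.

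Over the 165 oocytes, with the means of size group and replicate removed, the factors did not vary as 1 block. Of 28 pairs 5 had r above 0.3, 2 had r below −0.3 and 21 lay between. The strongest were CPSF2 with CSTF3 (r = 0.549), CPSF3 with CSTF3 (0.492) and CPSF3 with CPSF6 (0.413), and on the negative side CPSF1 with CPSF2 (−0.418) and CPSF2 with CPSF4 (−0.395). CPSF2 and CPSF3, the partners of the cleaving module, had r = 0.195. Among CSTF subunits r was 0.10 for CSTF1 with CSTF3, 0.021 for CSTF1 with CSTF2 and −0.169 for CSTF2 with CSTF3. Across the 16 sums, with replicate means removed, CPSF4 and CSTF2 had r = 0.795, CPSF4 and CSTF3 −0.600, and CSTF2 and CSTF3 −0.536.

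**Figure D5:**
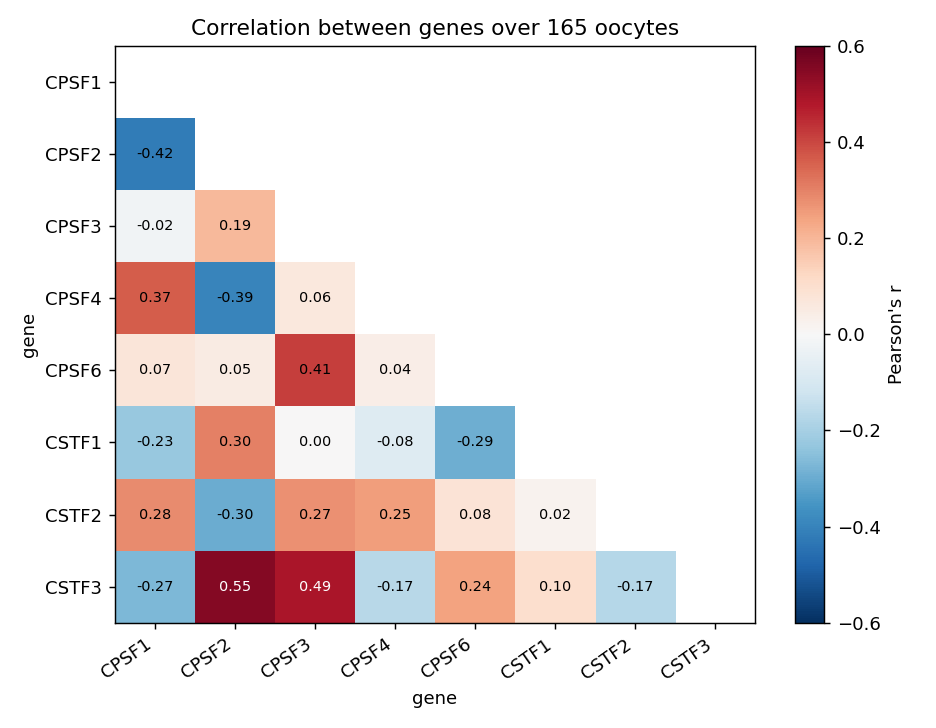
Pearson's r between factors (rows and columns) over 165 oocytes, on log2(CPM + 1) with the means of size group and replicate removed, from red (positive) to blue (negative). CPSF2 pairs positively with CSTF3 (0.55) and negatively with CPSF1 (−0.42) and CPSF4 (−0.39).

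Among 2935 other named genes, the profile over the 16 sums most like that of CPSF4 was CDC45 (Pearson's r = 0.969), which encodes a component of the replicative helicase. The nearest to CSTF2 was COASY (0.915), an enzyme of coenzyme A synthesis, to CPSF6 ACVRL1 (0.877), a receptor of the TGF-β family, and to CSTF3 CAPZA2 (0.836), an actin capping subunit. CPSF1 was nearest to ADIPOR2 (0.938), CPSF2 to CREBL2 (0.869), CPSF3 to CCDC43 (0.835) and CSTF1 to AP2M1 (0.757). These are descriptions over sums that share libraries, and the highest of 2935 values is high by selection. Of the 3608 gene identifiers that could be named, 80.3% had symbols beginning with A, B or C, so the genes nearest among all those counted may be others.

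Proteins that work with these factors gave mixed counts. Of the 4 CPEB genes, whose proteins bring CPSF to stored mRNAs in the cytoplasm, CPEB4 rose with diameter (slope 0.13, adjusted p = 0.0105 by edgeR) and CPEB3 fell (−0.09, adjusted p = 0.0174). CPEB1, the main form in oocytes, had a slope of 0.01 (adjusted p = 0.925) and CPEB2 had −0.01 (adjusted p = 0.870). CPEB4 was measured at 23.4 CPM in replicate 1 and 75.0 CPM in replicate 2 in the smallest oocytes, and at 32.2 and 197.8 CPM in the largest. Between these endpoints neither CPEB4 nor CPEB3 passed (adjusted p = 0.0955 and 0.135 by edgeR).

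A list of 13 genes held kinases, cyclins and a phosphatase of the tail of RNA polymerase II, which links transcription to 3′ end formation. It also held CDC73 and CTR9 of the Paf1 complex, BARD1 and CELF1. Of these 13 genes 2 rose and 3 fell with diameter, beside 33% of all genes in either direction. The kinase CDK7 (slope 0.10, adjusted p = 0.0108 by edgeR) and the phosphatase CTDP1 (0.13, adjusted p = 0.0345) rose. The cyclins CCNK (−0.15, adjusted p = 0.0120) and CCNT2 (−0.13, adjusted p = 0.0292) and the Paf1 complex subunit CTR9 (−0.12, adjusted p = 0.00280) fell. BARD1, whose protein binds CSTF1, had a slope of 0.02 (adjusted p = 0.696 by edgeR), and CELF1 had 0.02 (adjusted p = 0.763). None of 9 CCR4-NOT genes, whose complex shortens poly(A) tails, passed by edgeR, with slopes between −0.07 and 0.05 and 2 of them at an unadjusted p below 0.05, beside 42.8% of all genes. The median slopes of the 3 lists were −0.0037, 0.02 and −0.03, against −0.02 over all genes. Of the markers tested, 3 of 4 oocyte markers rose with diameter, as did COL1A2 of the 3 stroma and vessel markers that passed the filter (adjusted p = 0.0205), whereas FSHR and CD68 did not pass. At the steps from 80–99 μm on FSHR read 1.95, −7.01 and 5.81 log2, with no call and sums of at most 3.62 CPM. Between <60 and >120 μm COL1A2 was called (3.20 log2, adjusted p = 0.00550 by edgeR), as were 2 of the oocyte markers. The part of these markers in the results above was not tested.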

How the data were processed

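The authors trimmed reads with Trim Galore 0.6.6, mapped them to the bovine genome (ARS-UCD1.2) with HISAT2 and quantified raw counts per gene with SeqMonk. They deposited a table of these counts for 179 oocytes, with no normalization. The treatment of reads with several matches and of strand is not given in the sources used here. The authors corrected the batch of the replicates before their own tests, and that correction was not used here.

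Lines of the same gene identifier were summed, and identifiers were named from supplementary gene lists of the study, read here in a shortened copy. Counts of the 165 oocytes kept by its quality control were summed to 16 sums, 1 per size group and library replicate. Genes were filtered with filterByExpr (minimum count 10, minimum total 15), scaled by TMM and tested with the quasi-likelihood test of edgeR 4.0.16 in R 4.3.3, with the replicate as a block and Benjamini-Hochberg adjustment over 14087 genes at 0.05. The tests were the slope with mean diameter, any difference among the 8 groups, 6 contrasts between sizes and the interaction of replicate and diameter. Contrasts and slopes came from shared fits and share sums. DESeq2 1.42.0 was an alternative. Functions were also run on simulated sums with known changes. The outcome is not given here, and the simulation did not imitate sums led by a single deep oocyte.

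The replicate number stands for a shared library batch and read length, and deviations of sums with the same number from their group means correlated at 0.576 to 0.836 (median 0.722) over 28 pairs of groups. Animals are not named, so p-values measure only the spread between sums, which may be technical. Intervals of depth cover counting error only. Single-oocyte values are CPM scaled by TMM over 10993 genes, shown as log2(CPM + 1), and are given with no test. A fit with single oocytes as units was run only as an alternative.

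All 8 genes that met the symbol rule are named, and the nearest profile of each factor is given. Counts cover every named gene of 3 lists (CPEB, RNA polymerase II tail and Paf1 complex with BARD1 and CELF1, CCR4-NOT) and 4 marker lists. The factors and lists were chosen with earlier results of these data known. A list of 15 further nuclear 3′ end factors had no named gene and gave no value.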

Additional observations from a re-analysis of the deposited data

How the results depend on the processing

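The rise of CPSF4 with diameter passed under every alternative except replicate 2 alone. The 2 factors called in the trend became 1 without the replicate block and 1 with all 179 oocytes (CPSF4 in each), 0 in replicate 2 alone and 4 with single oocytes as units, where oocytes count as replicates. With thinning, no filter, RLE scaling and replicate 1 alone the count was 2, but of CPSF4 and CSTF2, with CPSF6 lost. Among the 8 groups, 2 became 0 without the replicate block, 0 with all 179 oocytes, 1 without the deepest 100–109 μm oocyte (chosen after seeing the data) and 7 with single oocytes. Between <60 and >120 μm, 3 became 0 without the replicate block and 1 (CPSF4) in a fit of only these groups. The block was part of the main design, and leaving it out ended all calls but that of CPSF4 in the trend.

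Where no factor was called, DESeq2 gave 2 factors from 80–99 to 100–109 μm (3.59%) and 2 from 100–109 to 110–119 μm (14%), no filter on low counts gave 1 in each (2.02% and 7.33% of all genes called), only the groups compared gave 3 in the first (7.53%), and single oocytes gave 1 and 3 (6.18% and 37%). Single oocytes also gave 1 from <70 to 70–79 μm (7.8%) and 1 (CPSF2) in the interaction (10.6%). With a sum left out, the counts ranged from 1 to 3 in the trend, 0 to 2 among the groups, 0 to 3 between the endpoints, 0 to 2 from 100–109 to 110–119 μm, and were 0 in the other comparisons. The lone sum of a group was then assumed to vary like the others.

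The share of all genes called moved as well. In the trend it was 33% in the main fit, 15.6% without the replicate block and 57.7% with single oocytes, between the endpoints 19.2%, 0.575% and 40.5%, among the groups 14.9%, 0% and 65.4%, and from 100–109 to 110–119 μm 3.88%, 0% and 37%, with 14% by DESeq2 and 0.0142% with all 179 oocytes.

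Slopes near 0 changed sign with no call. CPSF2 read 0.00106 thinned to 250000 counts, 0.0125 with all 179 oocytes, 0.0167 without the deepest oocyte, 0.00582 with DESeq2, 0.00493 without the filter, 0.0417 without the replicate block, 0.0905 in replicate 2 and 0.00583 with RLE. CPSF3 read −0.00616 with all 179 oocytes, −0.00625 without the block and −0.00516 in replicate 1. With a sum left out, slopes of CPSF2 ran from −0.0181 to 0.0337, and changes between the endpoints from −0.354 to 0.0323 for CPSF1, −0.450 to 0.597 for CPSF2 and −0.567 to 0.0336 for CSTF3.

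Of 8 Pearson correlations with diameter 4 were positive, and 7 with all 179 oocytes, which adds the 14 outside the quality control. Spearman's rho was then negative for CPSF1 (−0.0979), CPSF6 (−0.257) and CSTF3 (−0.114). Zero values, counted over every combination of the 8 factors and the oocytes, rose from 4 to 17 with thinning and to 43 with all 179 oocytes. Depth limits CPSF4 most, at a median of 28 counts per oocyte.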
